A study of Mus musculus with 9 samples.

Results

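The genes described here are 35 genes of mitosis and chromosome segregation, picked by name for their roles in cell division and found among the 22001 identifiers of the count table by their mouse Ensembl identifiers. All 35 were found, and all 35 passed the filter on low counts. In mitosis, cyclin-dependent kinase 1 bound to a cyclin drives the cell into division, condensins compact the chromosomes, and kinetochores tie each chromosome to the spindle. The spindle checkpoint then holds back the anaphase-promoting complex, a ubiquitin ligase, until every chromosome is attached, after which the central spindle directs cytokinesis. Most of these transcripts are made late in the cell cycle, so their level in a culture is widely used as a measure of how many cells are dividing. Macrophages grown from bone marrow divide in answer to colony-stimulating factor 1 and leave the cycle as they mature.

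The RNA came from macrophages that were grown from the bone marrow of mice of the strain C57BL6 and sequenced as 3 groups of 3 libraries, each taken after 6 h. The first group had received PBS and is called untreated-labelled (libraries A2, B2 and C2). The second had received Pam3CSK4, a synthetic bacterial lipopeptide that activates Toll-like receptors, at 100 µg/ml (D1, D2 and D3), and the third the same dose together with 3SL at 100 µl/ml (A2plus, B2plus and C2plus). They are called Pam3CSK4-labelled and 3SL-labelled. The amount of 3SL is given as a volume only, the titles of its libraries write Pamc4, and no label ties the 3 libraries of a group to different cultures or mice, so the p-values speak of the spread among these libraries, which may be technical. The letter D occurs in the Pam3CSK4-labelled group alone, so whatever the letters stand for and the treatment cannot be told apart.

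Total counts ran from 7472482 to 43980309 per library. The inflammatory genes went against the labels: Il1b stood at 10260, 10559 and 9661 CPM (counts scaled to the library size) in the untreated-labelled libraries, at 7.36, 4.3 and 7.03 CPM in the Pam3CSK4-labelled libraries and at 7495, 8353 and 8561 CPM in the 3SL-labelled libraries. Tnf went the same way, with means of 1704, 18.4 and 1267 CPM in the same order of groups. So did Il6, Ptgs2 and Nos2. Every direction given here is therefore a direction between libraries as labelled, and whether labels were exchanged was not tested. The 13 macrophage markers were present in all groups, 4 higher and 7 lower in the Pam3CSK4-labelled than in the untreated-labelled libraries (Mertk 1.99-fold and Trem2 1.86-fold higher, Cd14 10.6-fold and Adgre1 3.32-fold lower). In this comparison 39.0% of all genes tested were higher and 35.9% lower. The summed level of the 13 markers, of which Lyz2 was the largest part, was 27701 to 28367 CPM in the untreated-labelled, 20101 to 20531 CPM in the Pam3CSK4-labelled and 26682 to 27508 CPM in the 3SL-labelled libraries.

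Late cell cycle genes are known to carry in their promoters a short element, the cell cycle genes homology region (CHR), which is read by the MuvB complex, often with CCAAT boxes, which are bound by NF-Y. The promoters of the mitosis genes were searched for these letters on both strands, the CHR as TTTGAA or TTCGAA, the box as CCAAT and, for comparison, E2F elements as TTTGGCGC, TTTCGCGC, TTTCCCGC or TTTGCCGC. The RefSeq table of promoters (build GRCm38.p6, 250 bases before to 50 after each start) held 32 promoters of 30 of the 35 genes, and Ccna2, Kif20a, Aurkb, Tpx2 and Smc4 were not in it. No hits of different motifs overlapped in these promoters. Some windows do not match the start of the annotated gene. That of Kif2c (chr4:117178723-117179022) lies inside the gene, whose 5′ end is at 117182639 on the minus strand. That of Mad2l1 ends at 66535270, while the gene is annotated from 66535390 on the plus strand. Both genes are counted below as they stand.

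Promoters are shown for a cyclin, its kinase, Kif23 and Ttk with large changes, Ube2c with almost none, and 1 gene without any motif. Each runs from 100 bases before to 50 after the start, 5′ to 3′ in the direction of the gene. Capitals mark a CHR or CCAAT match. ATTGG is a CCAAT box and TTCAAA a CHR read on the other strand. The windows lie at chr9:70421505-70421654 (minus strand) for Ccnb2, at chr10:69352863-69353012 (minus) for Cdk1, at chr9:61946750-61946899 (minus) for Kif23, at chr9:83834589-83834738 (plus) for Ttk, at chr2:164769829-164769978 (plus) for Ube2c and at chr2:127133905-127134054 (minus) for Ncaph.
Ccnb2: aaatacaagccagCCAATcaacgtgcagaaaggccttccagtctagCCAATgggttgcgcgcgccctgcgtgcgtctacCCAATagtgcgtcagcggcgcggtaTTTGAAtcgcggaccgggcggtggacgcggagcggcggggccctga
Cdk1: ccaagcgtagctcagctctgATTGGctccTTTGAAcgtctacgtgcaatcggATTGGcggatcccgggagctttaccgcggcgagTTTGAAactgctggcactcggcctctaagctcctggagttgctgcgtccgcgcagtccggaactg
Kif23: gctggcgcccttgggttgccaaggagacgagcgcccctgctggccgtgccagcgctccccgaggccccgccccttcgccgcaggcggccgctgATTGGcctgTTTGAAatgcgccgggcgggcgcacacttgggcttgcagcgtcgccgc
Ttk: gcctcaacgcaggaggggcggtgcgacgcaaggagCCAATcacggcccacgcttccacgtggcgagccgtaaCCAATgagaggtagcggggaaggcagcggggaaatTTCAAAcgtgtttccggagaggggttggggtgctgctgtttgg
Ube2c: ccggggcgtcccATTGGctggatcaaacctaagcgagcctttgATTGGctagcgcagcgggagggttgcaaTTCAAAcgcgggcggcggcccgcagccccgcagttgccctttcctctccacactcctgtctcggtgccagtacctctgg
Ncaph: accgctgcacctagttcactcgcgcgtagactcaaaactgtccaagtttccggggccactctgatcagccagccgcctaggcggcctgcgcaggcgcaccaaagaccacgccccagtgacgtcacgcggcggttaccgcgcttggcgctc

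Of the 30 mitosis genes with a promoter, 23 (76.7%) held a CHR, against 16.7% of the 9137 tested genes with a promoter and 21.7% of the 27025 genes in the promoter table. A CCAAT box was found in 22 (73.3%), against 43.2% of the tested genes, and both motifs together in 20 (66.7%), against 6.97%. An E2F element was found in 2 mitosis genes, Cdk1 and Ncapg (6.67%), against 4.77% of the tested genes. The CHR matches lay close to the start site: counting a site shared by overlapping promoters of a gene once, 22 of 33 fell within 50 bases on either side of it, in 21 of the 23 genes. Of 100 other mitosis genes of a wider list, described below, 52% held a CHR, 62% a CCAAT box, 35% both and 13% an E2F element. Of 23 DNA replication genes, 21.7% held a CHR, 65.2% a CCAAT box and 47.8% an E2F element. A match is a run of letters and not a shown binding site, and these shares were compared by description only.

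**Figure D1:**
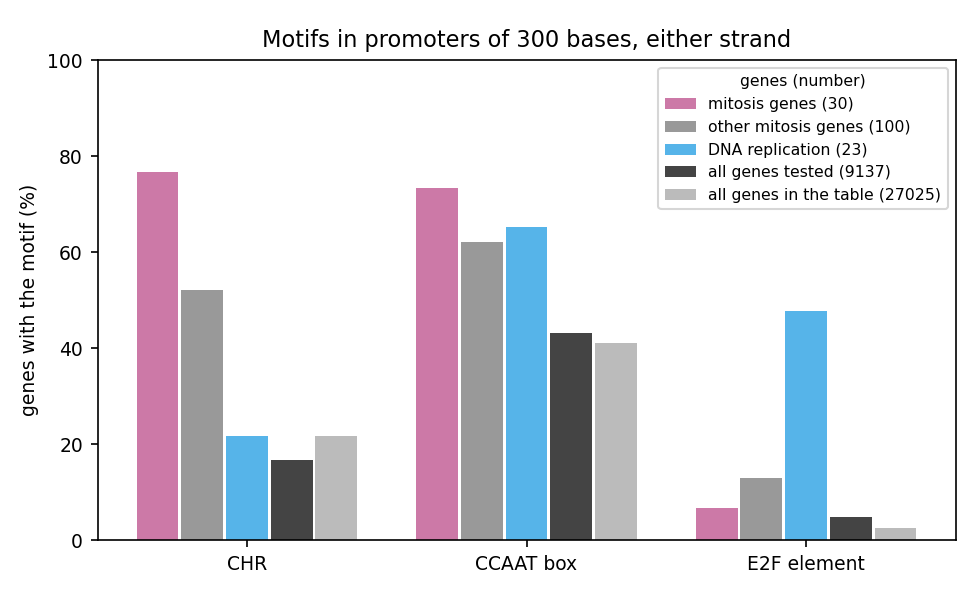
Share of genes (vertical axis, %) whose promoter of 300 bases holds a CHR, a CCAAT box or an E2F element, for the mitosis genes, 2 other cell cycle lists, all genes tested and all genes in the promoter table. The CHR bar of the mitosis genes stands at 76.7% and that of the genes tested at 16.7%, while the E2F bar is highest for the replication genes, at 47.8%.

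The mitosis genes were higher in the Pam3CSK4-labelled libraries than in both other groups. Summed over the 35 genes, the level was 1932, 1819 and 1844 CPM in A2, B2 and C2, 3570, 3492 and 3528 CPM in D1, D2 and D3, and 1880, 1841 and 1807 CPM in A2plus, B2plus and C2plus. The untreated-labelled and 3SL-labelled libraries overlapped, and the Pam3CSK4-labelled libraries lay above all 6 of them. In bulk RNA, fewer cells of a type and less RNA per cell cannot be told apart, so a difference in these sums may be one of dividing cells or of transcripts per cell.

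Against the untreated-labelled libraries, 34 of the 35 genes rose in the Pam3CSK4-labelled libraries and none fell, by edgeR's quasi-likelihood test at a Benjamini-Hochberg adjusted p below 0.05. Of all 11469 genes tested, 39.0% rose and 35.9% fell in this comparison. The median change of the mitosis genes was 0.98 on the log2 scale, from 0.02 to 1.94, where the median of all genes tested was 0.03. A rise of at least 2-fold was called for 16 of them, against 13.2% of all genes. In 34 genes the lowest Pam3CSK4-labelled library lay above the highest untreated-labelled one, which held for 39.5% of all genes.

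The 3SL-labelled libraries were then set against the Pam3CSK4-labelled ones, a comparison that shares the D libraries with the first, so that the 2 sets of changes are not independent. All 35 mitosis genes fell, against 36.8% of all genes that fell and 34.7% that rose, with a median change of -0.95 (range -2.11 to -0.14) beside -0.02 for all genes. The fall was at least 2-fold in 17, against 12.5% of all genes, and the groups did not overlap in any of the 35, against 37.6% of all genes that were lower without overlap.

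**Figure D2:**
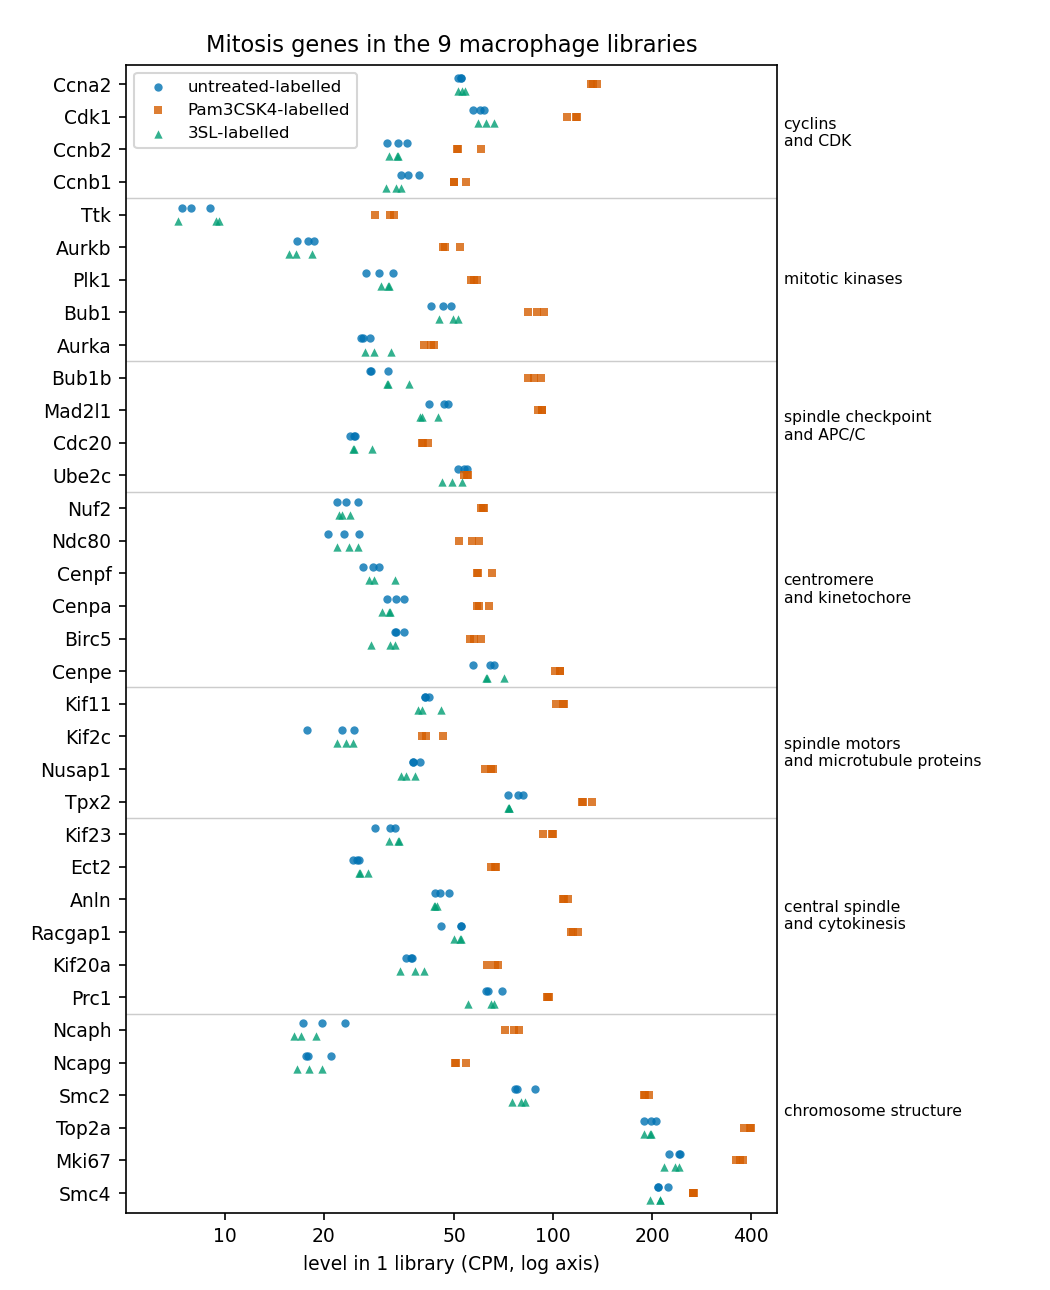
Level of each of the 35 mitosis genes (rows, ordered by role) in each of the 9 libraries (points), in CPM on a log axis. The Pam3CSK4-labelled squares stand to the right of the other libraries in every row except that of Ube2c, and the circles and triangles of the other groups lie together.

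Among the cyclins and their kinase, all 4 genes rose in the Pam3CSK4-labelled libraries, with a median change of 0.81, and 1 of them at least 2-fold. Ccna2, the cyclin of S phase and of entry into mitosis (chromosome 3, 36564865 to 36572150 on GRCm38, minus strand), stood at 52.5, 52.2 and 51.1 CPM in A2, B2 and C2, at 136, 132 and 130 CPM in D1, D2 and D3, and at 54.0, 51.1 and 52.8 CPM in A2plus, B2plus and C2plus. All 3 D libraries were high, and the other 6 lay within 3 CPM of each other. The rise was 1.35 on the log2 scale (95% interval 1.26 to 1.44, edgeR adjusted p = 8.55e-21), a 2.55-fold change.

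Per length, the most abundant of the 4 was Ccnb2, a mitotic cyclin, with a mean of 21.9 CPM per kilobase of exon in the untreated-labelled and 35.4 in the Pam3CSK4-labelled libraries. Its level was 35.9, 33.6 and 31.1 CPM in the untreated-labelled libraries, 60.2, 51.3 and 51.0 CPM in the D libraries and 31.5, 33.7 and 33.5 CPM in the 3SL-labelled libraries, a rise of 0.68 (edgeR adjusted p = 7.59e-10). The B-type cyclins thus moved less than Ccna2: the interval of Ccna2 did not overlap that of Ccnb2 (0.54 to 0.82) or of Ccnb1 (0.36 to 0.61). Cdk1, the kinase that both cyclin types activate, rose by 0.95, from 61.4, 59.9 and 56.8 CPM to 117, 110 and 118 CPM.

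All 5 mitotic kinases rose, with a median change of 0.98, and 2 of them, Ttk and Aurkb, at least 2-fold. Ttk, the kinase that starts spindle checkpoint signalling at kinetochores (chromosome 9, 83834689 to 83872389, plus strand), stood at 8.99, 7.88 and 7.42 CPM in the untreated-labelled libraries, at 31.8, 28.6 and 32.7 CPM in the Pam3CSK4-labelled and at 9.42, 9.6 and 7.22 CPM in the 3SL-labelled libraries. It had the lowest level of all 35 genes per length in the untreated-labelled libraries, 1.65 CPM per kilobase, and one of the highest rises, 1.93 (95% interval 1.74 to 2.12, edgeR adjusted p = 1.46e-16).

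Plk1, which matures centrosomes and is needed at many steps of mitosis, had the highest level per length of the kinases. It stood at 29.5, 26.9 and 32.6 CPM, then at 58.6, 57.4 and 56 CPM and at 29.9, 31.3 and 31.6 CPM in the same order of groups, a rise of 0.98 (edgeR adjusted p = 1.13e-13) and a change of -0.89 in the 3SL-labelled libraries. The 2 Aurora kinases changed unequally. Aurkb, the kinase of the chromosomal passenger complex, rose by 1.43 (95% interval 1.28 to 1.58) and Aurka, the kinase of spindle poles, by 0.65 (0.51 to 0.79). Bub1, a kinetochore kinase, rose by 0.97.

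The spindle checkpoint and the anaphase-promoting complex (APC/C) held the exception. Bub1b, whose protein BubR1 is part of the checkpoint complex that restrains the APC/C, rose most of the 4 genes: 31.4, 27.9 and 27.6 CPM became 91.9, 87.1 and 83.8 CPM, with 36.3, 31.1 and 31.3 CPM in the 3SL-labelled libraries. That was a rise of 1.60 (95% interval 1.47 to 1.73, edgeR adjusted p = 6.45e-19) and a change of -1.42 in the 3SL-labelled libraries (edgeR adjusted p = 1.05e-16). Mad2l1, the checkpoint protein that binds Cdc20, rose by 1.0, and Cdc20, the activator of the APC/C in mitosis, by 0.72.

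Ube2c, the ubiquitin-conjugating enzyme that works with the APC/C (chromosome 2, 164769898 to 164778822, plus strand), was the gene that did not rise. Its level was 54.7, 53.6 and 51.3 CPM in the untreated-labelled, 53.3, 55 and 54.5 CPM in the Pam3CSK4-labelled and 49.3, 52.6 and 45.7 CPM in the 3SL-labelled libraries. The first 2 groups overlapped, with a change of 0.02 (95% interval -0.09 to 0.14, edgeR adjusted p = 0.696). With library sizes left unscaled this change became 0.34, with an adjusted p of 3.4e-06, where the median of all genes also moved to 0.34. The 3SL-labelled level was 1.1-fold lower than the Pam3CSK4-labelled one (log2 change -0.14, 95% interval -0.27 to -0.02, edgeR adjusted p = 0.0389), and this call was lost in 7 of the alternative analyses (adjusted p from 0.068 to 0.262, lost among others without D2, D3, A2plus or C2plus). On average over the libraries, Ube2c was the most abundant per length of these 4 genes, at 20.5 CPM per kilobase in the untreated-labelled and 20.9 in the Pam3CSK4-labelled libraries, where Cdc20 stood higher, at 21.7. Its promoter, printed above, holds a CHR and CCAAT boxes as those of Ttk and Kif23 do.

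All 6 genes of the centromere and kinetochore rose, with a median change of 0.99, and 3 of them at least 2-fold. Nuf2, a subunit of the NDC80 complex that grips microtubules, rose most: it stood at 25.5, 23.3 and 22 CPM, at 61.4, 60.9 and 60.4 CPM and at 22.3, 24.1 and 22.7 CPM in the untreated-, Pam3CSK4- and 3SL-labelled libraries. The change was 1.36 (edgeR adjusted p = 4.07e-17). Its partner Ndc80 rose by 1.26, and Spc24 and Spc25, the other two subunits of that complex, by 1.26 and 1.22, so the 4 intervals overlapped (1.23 to 1.49, 1.11 to 1.41, 1.04 to 1.48 and 1.08 to 1.36).

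Birc5, or survivin, which brings the chromosomal passenger complex to centromeres, was the most abundant of the 6 per length. Its levels were 35.2, 32.9 and 33.1 CPM, then 57.5, 55.8 and 60.1 CPM, then 31.8, 32.9 and 27.9 CPM, a rise of 0.78 (edgeR adjusted p = 7.12e-12). The complex was less even than NDC80. Beside Aurkb at 1.43, the rises of Birc5 (95% interval 0.65 to 0.91), Cdca8 (0.57 to 0.83) and Incenp (0.45 to 0.62) were smaller, with no overlap with the interval of Aurkb. Cenpa, the histone variant of centromeres, rose by 0.85, Cenpf, a kinetochore protein, by 1.13 and Cenpe, a kinetochore motor, by 0.72.

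The 4 spindle motors and microtubule proteins rose with a median of 0.83, and 1 at least 2-fold. That was Kif11, the motor that pushes the spindle poles apart, at 40.7, 40.8 and 41.8 CPM, then 108, 102 and 107 CPM, then 45.4, 38.8 and 39.7 CPM, a rise of 1.37 (edgeR adjusted p = 2.78e-19). The 3SL-labelled libraries lay around the untreated-labelled ones, on both sides. Tpx2, which starts microtubules near chromosomes and activates Aurora A, was highest per length and rose by 0.71, from 78.0, 73.0 and 80.8 CPM to 131, 122 and 123 CPM, with 72.7, 73.3 and 73.2 CPM in the 3SL-labelled libraries. Kif2c, which takes microtubule ends apart, rose by 0.92 and Nusap1, a microtubule-bundling protein, by 0.75.

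The central spindle and cytokinesis genes had the highest median of the 7 roles, 1.22, and 4 of 6 rose at least 2-fold. Kif23, the motor subunit of centralspindlin (chromosome 9, 61915905 to 61946774, minus strand), stood at 32.9, 28.7 and 31.8 CPM, at 100, 99.1 and 93.2 CPM and at 33.6, 34.0 and 31.6 CPM. It rose by 1.67 (95% interval 1.55 to 1.79, edgeR adjusted p = 3.99e-20), a 3.18-fold change, and fell by 1.56 in the 3SL-labelled libraries. Racgap1, the other subunit of centralspindlin, rose by 1.18 (1.08 to 1.29), and Ect2, the exchange factor that this complex recruits to activate RhoA, by 1.39. Anln, a scaffold of the contractile ring, rose by 1.26, and Prc1, which bundles the microtubules of the central spindle, by 0.57. Kif20a, a motor of the central spindle and on average the highest of the 6 per length (15.1 CPM per kilobase in the Pam3CSK4-labelled libraries, where Racgap1 stood higher, at 16.3), rose by 0.84: it stood at 35.7, 36.9 and 37.2 CPM, at 67.7, 63.0 and 66.3 CPM and at 34.2, 37.8 and 40.4 CPM.

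Chromosome structure held both the largest and, Ube2c aside, the smallest rise. Ncaph, the kleisin subunit of condensin I (chromosome 2, 127103809 to 127133954, minus strand), stood at 23.2, 17.3 and 19.8 CPM in the untreated-labelled, at 78.6, 75.8 and 71.3 CPM in the Pam3CSK4-labelled and at 17.0, 19.0 and 16.2 CPM in the 3SL-labelled libraries. It rose by 1.94 (95% interval 1.78 to 2.1, edgeR adjusted p = 2.08e-18), 3.83-fold, and its change in the 3SL-labelled libraries was -2.11, 4.31-fold (edgeR adjusted p = 1e-17). Smc4, the ATPase shared by both condensins (chromosome 3, 69004738 to 69034623, plus strand), stood at 208, 208 and 223 CPM, at 268, 267 and 267 CPM and at 197, 211 and 211 CPM. That was a rise of 0.33 (95% interval 0.25 to 0.41, edgeR adjusted p = 7.74e-09), 1.26-fold, in the gene with the highest level per length of all 35, 40.9 CPM per kilobase in the untreated-labelled and 51.3 in the Pam3CSK4-labelled libraries.

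The subunits of condensin, looked at together after their values were seen, covered a wide range. In condensin I, Ncapg rose by 1.47 and Ncapd2 by 1.66 beside Ncaph. In condensin II, Ncapg2 rose by 3.05, Ncapd3 by 2.0 and Ncaph2 by 0.50. Ncapg2 went from 17.9, 16.2 and 16.5 CPM to 139, 143 and 132 CPM and stood at 21.2, 15.9 and 15.1 CPM in the 3SL-labelled libraries. Smc2, the partner of Smc4, rose by 1.25 (95% interval 1.15 to 1.35), well apart from Smc4. Of the genes best known as markers of dividing cells, Top2a, the topoisomerase that untangles sister chromosomes, rose by 0.99 and Mki67, the coat protein of mitotic chromosomes, by 0.65. Mki67 stood at 242, 225 and 243 CPM, at 361, 371 and 378 CPM and at 242, 217 and 234 CPM, a change of 1.57-fold that was smaller than the median of the 35 genes.

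**Figure D3:**
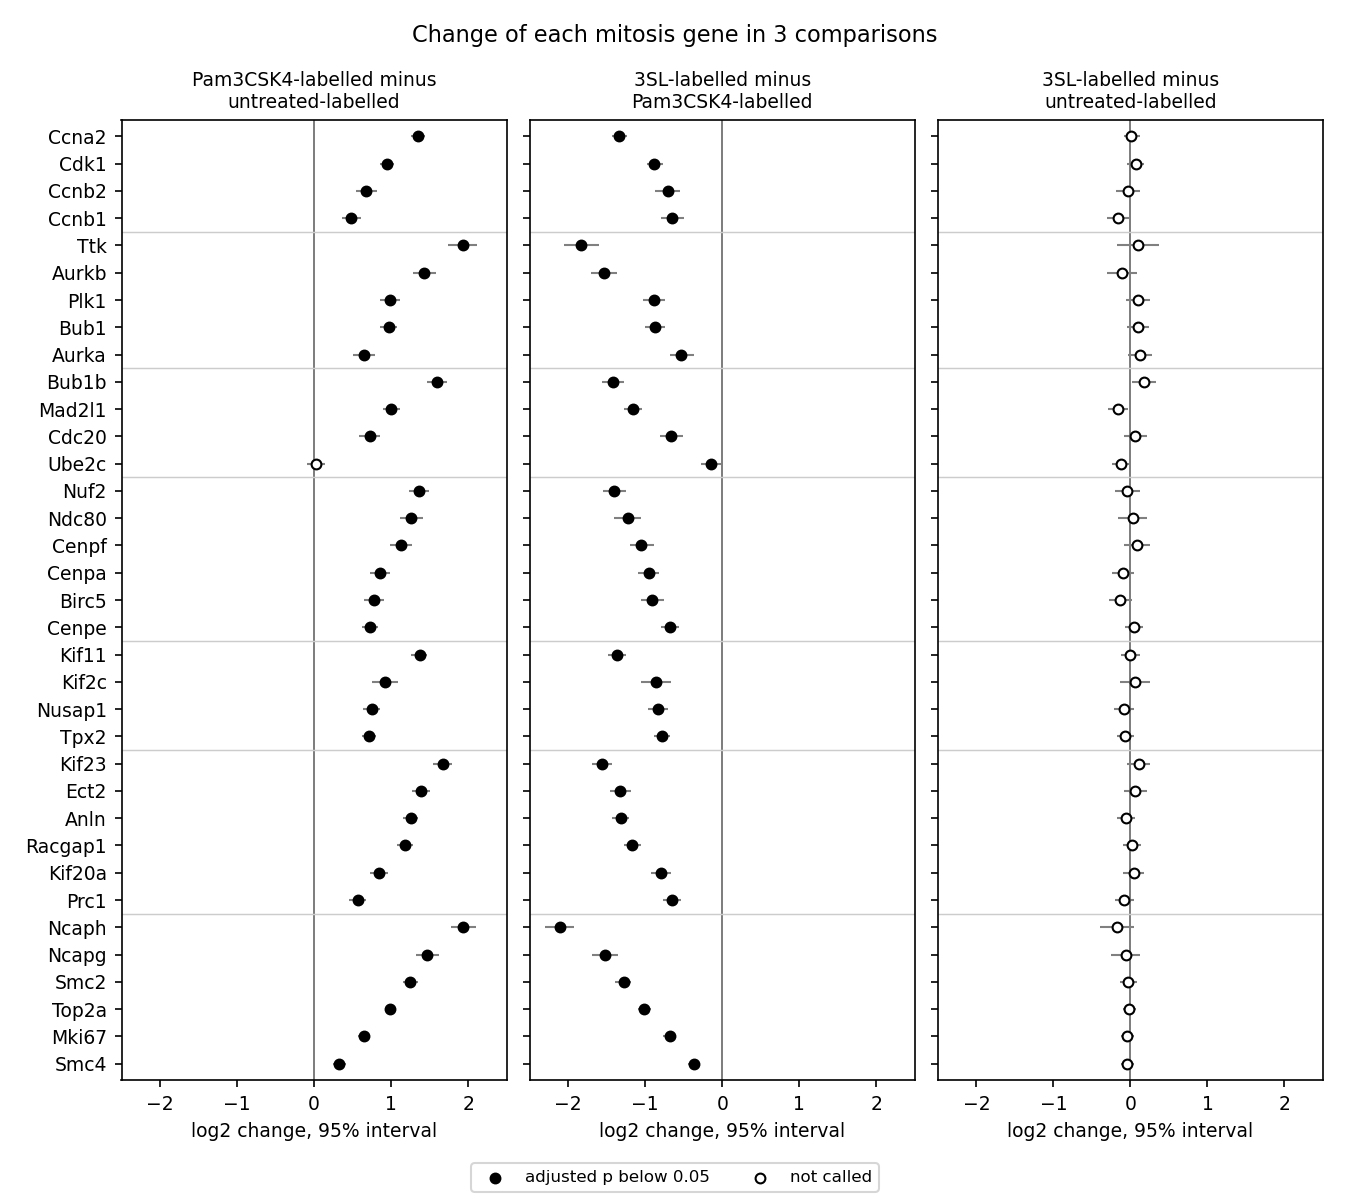
Change of each mitosis gene on the log2 scale (horizontal axis) with its 95% interval in the 3 comparisons, filled where edgeR's adjusted p was below 0.05. The changes run from 0.02 to 1.94 in the left panel and from -2.11 to -0.14 in the middle one, which shares the Pam3CSK4-labelled libraries with it, and all points of the right panel are open.

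Between the 3SL-labelled and the untreated-labelled libraries no mitosis gene passed the threshold by edgeR's quasi-likelihood test or by DESeq2, where 8.94% of all genes did by edgeR. At an unadjusted p below 0.05 edgeR named 3 of the 35, Mad2l1, Bub1b and Ccnb1, against 21.2% of all genes. Mad2l1, with a change of -0.16, had the smallest adjusted p, 0.126. It passed the threshold when C2 was left out, with a change of -0.20 and an adjusted p of 0.0475. The 95% intervals of all 35 genes lay within 1.5-fold in either direction, from 1.31-fold lower (Ncaph) to 1.29-fold higher (Ttk). The estimates were positive for 16 genes and negative for 19, with a median of -0.02. Only Ccnb1 showed no overlap between these groups, with 39.0, 36.1 and 34.5 CPM against 34.4, 30.9 and 33.1 CPM, where 24.0% of all genes showed none. Its change of -0.16 had an edgeR adjusted p of 0.173.

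The 121 other mitosis genes of a wider list, all of which were tested, moved in the same main direction with more exceptions. In the Pam3CSK4-labelled libraries 100 were higher and 15 lower than in the untreated-labelled ones, against 39.0% and 35.9% of all genes. With library sizes left unscaled, 5 of them were lower, where the median of all genes moved to 0.34. The shares of all genes given here are those with scaled sizes. Their median was 1.09, and 65 were at least 2-fold higher, against 13.2% of all genes. In the 3SL-labelled libraries 98 were lower and 13 higher than in the Pam3CSK4-labelled ones (median -1.12), against 36.8% and 34.7% of all genes. With library sizes unscaled 4 were higher, where the median of all genes moved to -0.29. Wee1, the kinase that holds Cdk1 inactive before mitosis, rose most: 6.65, 6.16 and 7.95 CPM became 69.5, 68.1 and 69.2 CPM, with 7.03, 7.25 and 6.1 CPM in the 3SL-labelled libraries. That was a 10.4-fold change (log2 3.38, edgeR adjusted p = 5.2e-24), larger than that of any of the 35 genes. Esco2, which acetylates cohesin, rose by 2.62, from 3.67, 3.5 and 3.5 CPM to 20.5, 23.9 and 21.1 CPM, with 5.48, 3.92 and 3.05 CPM in the 3SL-labelled libraries.

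Mybl2, Foxm1 and the subunits of MuvB that the wider list holds, chosen here after their values were seen, did not move as one. Mybl2, the B-Myb protein that joins MuvB, rose by 3.14, from 2.03, 2.49 and 2.12 CPM to 21.3, 19.7 and 20.3 CPM, and stood at 2.11, 1.47 and 1.32 CPM in the 3SL-labelled libraries. Foxm1, the forkhead factor of late cell cycle genes, rose by 1.54. Foxm1 stood at 21.3, 18.3 and 19.0 CPM, at 60.2, 53.4 and 55.9 CPM and at 18.1, 18.1 and 18.4 CPM. Of the MuvB subunits in the list, which leaves out Rbbp4, Lin9 rose by 1.34 and Lin54, which contacts the DNA, by 1.24. Lin52 rose by 0.38 (edgeR adjusted p = 0.00742), a call lost with DESeq2 (adjusted p = 0.0813), at equal depth (0.2), without B2 (0.107) and without D1 (0.0506). Lin37 changed by -0.22 with an edgeR adjusted p of 0.0575, and passed the threshold in 4 alternatives, among them without A2 (0.0487) and without D1 (0.0214). Among the mitosis genes themselves the 23 with a CHR match had a median change of 0.99 (0.02 to 1.93). The 7 without TTTGAA or TTCGAA had a median of 0.78 (0.48 to 1.94), and other forms of the CHR were not searched. For the CCAAT box the order was the other way, 0.97 in the 22 genes with it and 1.13 in the 8 without, and the 5 genes with neither motif had a median of 1.0. Ncaph, with no CHR or CCAAT box in its window, and Ube2c, with both, stood at the opposite ends of the 35. Ttk, also with both, rose by 1.93, close to Ncaph at 1.94. Whether the motifs bear on these changes was not tested.

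The wider list's largest fall was that of Ube2s. Ube2s, the enzyme that lengthens the ubiquitin chains which Ube2c begins, stood at 57.5, 56.2 and 59.0 CPM, at 33.8, 34.2 and 34.1 CPM and at 55.4, 55.5 and 50 CPM. It fell by 0.75, 1.68-fold (edgeR adjusted p = 2.98e-12), and was higher by 0.65 in the 3SL-labelled libraries. Fzr1, the activator of the APC/C after mitosis, fell by 0.43 on the log2 scale, from 55.8, 52.7 and 51.5 CPM to 35.7, 40.4 and 42.6 CPM, and stood at 55.1, 56.3 and 56.2 CPM in the 3SL-labelled libraries, where Cdc20 rose by 0.72 in the first comparison. With library sizes left unscaled, the change of Fzr1 was -0.12 with an adjusted p of 0.0839. Wapl, which releases cohesin from chromosomes, fell by 0.41, from 211, 201 and 216 CPM to 158, 155 and 158 CPM, with 216, 197 and 216 CPM in the 3SL-labelled libraries. Ckap2l, a spindle protein, fell by 0.49, from 72.3, 64.2 and 73.2 CPM to 47.4, 50.7 and 49.4 CPM, with 55.8, 63.4 and 62.2 CPM in the 3SL-labelled libraries. Ensa, whose protein inhibits a phosphatase that opposes Cdk1, fell by 0.52, to 151, 139 and 140 CPM.

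Trip13, the ATPase that takes the checkpoint protein Mad2 apart from its partners, was lower than in the untreated-labelled libraries in both other groups. It stood at 34.6, 33.9 and 36.1 CPM in the untreated-labelled, at 23.7, 23.1 and 22.4 CPM in the Pam3CSK4-labelled and at 23.3, 23.5 and 28.5 CPM in the 3SL-labelled libraries. The log2 changes from the untreated-labelled libraries were -0.59 and -0.46 (edgeR adjusted p = 3.93e-08 and 0.000166), and the 2 lower groups differed from each other by 0.13 with an edgeR adjusted p of 0.169. The library C2plus was higher than the other two of its group, and without it the difference from the untreated-labelled libraries was -0.56. One other of the 121 genes, Ensa, was called between these groups, with 205, 206 and 203 CPM against 177, 194 and 187 CPM (-0.14, edgeR adjusted p = 0.0353), and that call was lost in 7 alternatives, among them without any 1 of A2, B2, C2, A2plus or C2plus (adjusted p from 0.051 to 0.204).

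**Figure D4:**
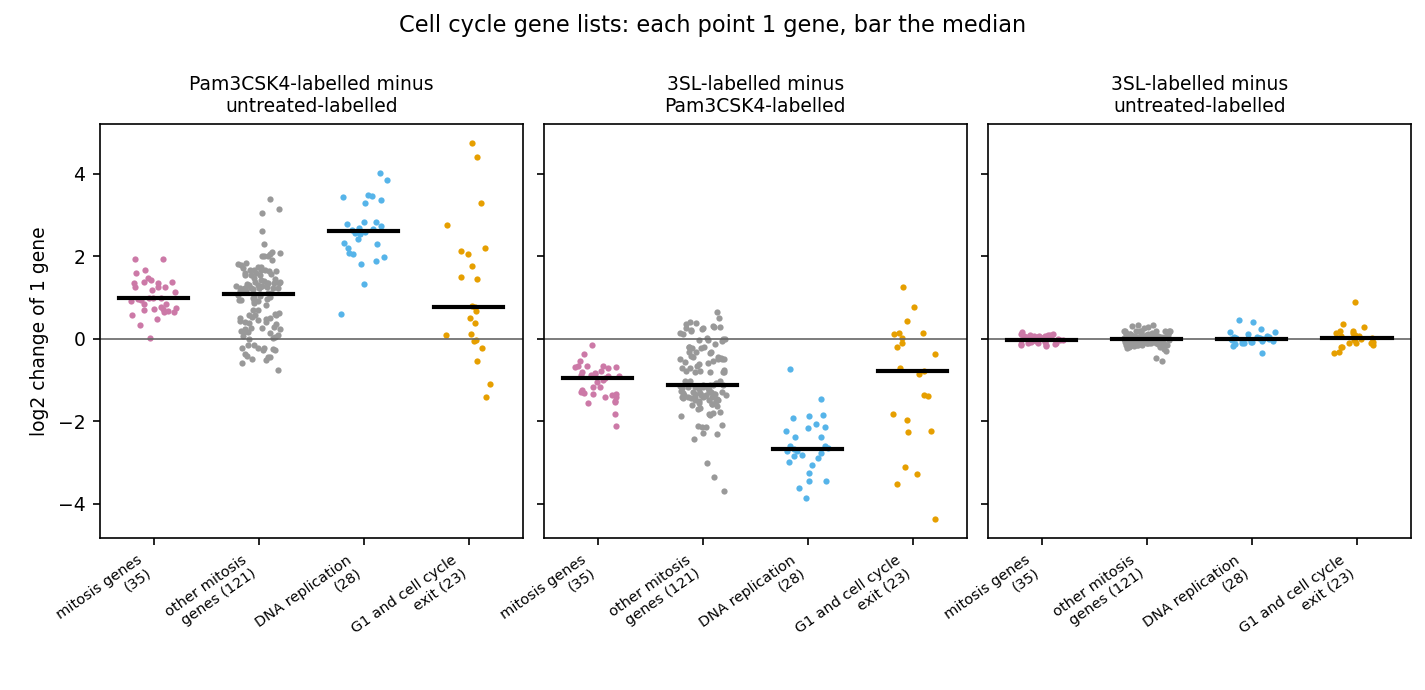
Log2 change of each gene (points) in the 35 mitosis genes, the 121 other mitosis genes, 28 DNA replication genes and 23 genes of G1 and cell cycle exit, in the 3 comparisons, with black bars at the medians. In the left panel the medians are 0.98, 1.09, 2.61 and 0.78, and in the right panel every median lies between -0.02 and 0.01.

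The mitosis genes changed less than the genes of DNA replication, which takes place earlier in the cell cycle. All 28 replication genes were higher in the Pam3CSK4-labelled than in the untreated-labelled libraries, 27 at least 2-fold, against 39.0% and 13.2% of all genes. Their median was 2.61, and 24 of the 28 changed by more than any of the 35 mitosis genes. Their summed level was 615 ± 14.4 CPM (SD, n = 3) in the untreated-labelled, 3615 ± 51.3 CPM in the Pam3CSK4-labelled and 632 CPM on average in the 3SL-labelled libraries, where the mitosis genes stood at 1865 ± 59.1, 3530 ± 38.7 and 1843 ± 36.7 CPM. The 23 genes of G1 and exit from the cycle moved in both directions, 15 higher and 4 lower, against 39.0% and 35.9% of all genes. Ccnd1, the cyclin of G1, went from 21.2, 19.5 and 19.8 CPM to 542, 511 and 566 CPM, and Cdkn1a, the p21 inhibitor of cyclin-dependent kinases, from 454, 481 and 438 CPM to 171, 178 and 173 CPM. These differences between lists are descriptions and were not tested.

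Markers of lymphocytes, erythroid cells, stromal cells and dendritic cells were low, but some markers of neutrophils and myeloid progenitors were not. In the untreated-labelled libraries Ngp, Ltf and Mmp8 had means of 111, 59 and 50.8 CPM. These were above the median of the mitosis gene means there, 36.5 CPM, and the other markers of that list were below it. Of 13 markers of neutrophils and myeloid progenitors, 11 were tested, 7 were higher and 3 lower in the Pam3CSK4-labelled than in the untreated-labelled libraries, where 39.0% of all genes were higher and 35.9% lower. The 7 higher were Retnlg (4-fold), Cd34 (3.31-fold), Elane (2.19-fold), Mpo (2.12-fold), Kit (1.59-fold), Prtn3 (1.26-fold) and Mmp8 (1.12-fold). Retnlg was low, with means of 0.453 CPM in the untreated-labelled and 1.94 CPM in the Pam3CSK4-labelled libraries. Cd34, at 1.5 and 5.24 CPM, and Kit, at 2.51 and 3.86 CPM, were low too. The 3 lower were Camp (2.05-fold), Ngp (1.28-fold) and Ltf (1.13-fold). Mpo, a granule enzyme of dividing myeloid progenitors, stood at 19.8, 18.6 and 18.3 CPM, at 39.0, 39.1 and 42.4 CPM and at 22.1, 19.9 and 22.2 CPM. The whole list summed to 279 to 283 CPM in the untreated-labelled, 259 to 315 CPM in the Pam3CSK4-labelled and 243 to 261 CPM in the 3SL-labelled libraries, so the first 2 groups overlapped in a sum that Ngp, Ltf and Mmp8 made up for the most part. Their part in the rise of the mitosis genes was not tested. Of 10 lymphocyte markers 2 were tested and 1 was higher, with sums of 10.3 to 15.4 CPM over all libraries. None of 6 erythroid markers was tested, with sums of 0.212 to 1.99 CPM. One of 7 stromal markers was tested, and was lower, with sums of 12.1 to 13.3, 1.84 to 2.88 and 8.01 to 10.3 CPM in the 3 groups. Of 7 dendritic cell markers 3 were tested, 1 was higher and 2 lower, with sums of 5.3 to 6.31, 3.52 to 4.82 and 3.05 to 3.94 CPM.

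Ttk had the fewest counts of the 35 genes, 67 to 98 in the 3SL-labelled libraries. The standard error of its 3SL-labelled change from the untreated-labelled libraries was 0.129 on the log2 scale, against 0.0391 for Smc4. All counts were above the floor of detection, where 3 counts correspond to 0.0746 to 0.422 CPM, and the median coefficient of variation within a group was 5.82% in the untreated-labelled, 3.42% in the Pam3CSK4-labelled and 5.66% in the 3SL-labelled libraries, with highest values of 16.6%, 9.74% and 15.1%. Whether the counting used strand is not known. Of the 35 genes, 7 overlap a protein-coding gene on the other strand (Ccna2 with Exosc9, Cdc20 with Elovl1, Kif20a with Cdc23, Ncapg with Lcorl, Nusap1 with Oip5, Prc1 with Rccd1 and Ube2c with Tnnc2), and reads from such partners cannot be told apart. Ccnb1 and Ccnb2 have annotated pseudogenes whose reads could be shared with them. Copies were sought only under a gene's own symbol followed by ps or rs, and copies under other names were not looked for.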

How the data were processed

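RNA was sequenced from 9 libraries in 3 groups of 3. The authors deposited raw counts per gene in 1 table. Per the submitters' processing notes, HISAT2 2.1.0, Subread and featureCounts were named, with no role for each, and the human build hg38, although the identifiers are mouse; the build, annotation and strand setting behind the counts were not settled. The table's 15 other columns were not used here. Symbols matched 21909 of 22001 identifiers.

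Genes were kept by filterByExpr (11469 genes, 52.1%), scaled with TMM factors and tested with edgeR 4.0.16 (R 4.3.3) by its quasi-likelihood test, with 1 mean per group over all 9 libraries and Benjamini-Hochberg adjustment over all genes tested. A gene was called at an adjusted p below 0.05. CPM are TMM-scaled, and levels per length use the union of exons in GENCODE M21 (GRCm38), whose coordinates describe genes. The procedure was tested on simulated data in which few genes differed between groups. Scaling under changes as broad as those seen here was not tested by it.

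Every pair of libraries within a group varied beyond counting noise (chi-square per degree of freedom 1.83 to 2.91). Intervals and floors cover counting error and the fitted spread; the reads carry no molecular identifiers.

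The mitosis genes, roles and lists were chosen with earlier results of these data known. Values in every library are given for the gene with the highest mean level per length, the largest rise and the largest fall of each role, for genes not called in the majority direction, and, of the other mitosis genes, for the 4 that changed most in each direction and were called, at a mean log2 CPM of 2 or more; genes named as subunits of a complex were chosen after their values were seen, and so were the label check, Cdk1, Ccnb1, Mki67, Foxm1, Mpo, Ccnd1 and Cdkn1a. Alternatives were DESeq2 1.42.0 and its size factors, unscaled library sizes, no filter, only the groups compared, thinning to the smallest library, a minimum fold of 2, each library left out and a replicate block.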

Additional observations from a re-analysis of the deposited data

How the results depend on the processing

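Of 2622 alternative values for the mitosis genes and the other genes named, none reversed a called change, and 30 moved across the threshold; those of Ube2c, Mad2l1, Lin52, Lin37, Fzr1 and Ensa are given above, and the others are Ckap2l between the 3SL-labelled and the Pam3CSK4-labelled libraries with library sizes unscaled (0.03, adjusted p = 0.695) and between the 3SL-labelled and the untreated-labelled libraries in 3 alternatives, and Lin52 between the 3SL-labelled and the Pam3CSK4-labelled libraries unscaled. With unscaled library sizes the median of all genes was 0.34 in the first comparison and -0.29 in the second, in place of 0.03 and -0.02. A minimum of 2-fold left 16 mitosis genes higher in the first comparison and 17 lower in the second, with 65 other mitosis genes higher and 0 lower in the first and 0 higher in the second. Unscaled, 5 other mitosis genes were lower in the first comparison and 4 higher in the second, in place of 15 and 13. Between the 3SL-labelled and untreated-labelled libraries, leaving out each library in turn gave 0 to 1 mitosis genes lower, 0 to 2 other mitosis genes higher and 1 to 3 lower; the 2 other mitosis genes lower became 0 at 2-fold, 1 unscaled and 1 at equal depth.

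With the letters A, B and C as a replicate block, that comparison called 0 mitosis genes and 2 other mitosis genes, both lower. Same-letter libraries did not deviate together (r = -0.0167, 0.0424 and 0.00797), so the letters were not taken as pairs, and not every library correlated best with its own letter. The Pam3CSK4-labelled libraries share no letter with the others. Depth limits the least counted genes, such as Ttk, and the Ube2c call between the 3SL-labelled and the Pam3CSK4-labelled libraries was lost at equal depth (adjusted p = 0.0952).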
